A study of Mus musculus with 8 samples.

Results

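Bmal1 (Arntl) and Clock encode the partners of the activator that drives the mammalian circadian clock, and Arntl2 and Npas2 are their closest paralogs. These 4 genes were found by matching the Ensembl identifiers of the count table to gene symbols, and they are 4 of the 55487 genes in the table. The sources describe the RNA as that of the stromal vascular fraction of subcutaneous tumors of MC38, a mouse colon adenocarcinoma cell line. These would be the cells that were GFP- when GFP-labelled tumor cells were sorted away. As described, 4 samples from tumors of mice labelled Bmal1+/+ were compared with 4 from tumors of mice labelled Bmal1-/-, with 1 library per sample. Whether each sample came from a separate mouse is not given in the sources used here. The tissue is known here from that description alone and the genotypes from the labels alone. Mice of both genotypes descended from Bmal1+/- founders and were typed by PCR on ear tissue, the same MC38 line was implanted in both groups, so a deletion of Bmal1 would lie in the host cells alone, and no treatment is given for these samples. Sex, age and the hour of tissue collection are not given in the sources used here, and the mice lived in a cycle of light and dark.

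In the core loop, BMAL1 pairs with CLOCK through helix-loop-helix and PAS domains and binds E-boxes in the genes of the period and cryptochrome proteins, of the REV-ERB receptors and of the PAR-bZIP factors such as DBP. PER and CRY proteins then repress the activator, while the ROR receptors and the REV-ERB receptors compete for elements in the Bmal1 promoter, RORs activating and REV-ERBs repressing. NPAS2 can take the place of CLOCK beside BMAL1, and BMAL2, the product of Arntl2, can pair with CLOCK.

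Counted over the whole gene, Arntl, the targeted gene, had more RNA in every library labelled Bmal1-/- than in any labelled Bmal1+/+. These counts are not split by exon, so whether the RNA came from an intact or a disrupted gene was not tested. Npas2 and Clock were also higher in the libraries labelled Bmal1-/-, by a large and a moderate factor. Arntl2 stayed within the spread between replicates. The levels of these 4 genes therefore describe libraries named by their label, and Bmal1+/+ and Bmal1-/- stand below for the labels of the libraries. Over all genes, 14353 passed the expression filter of edgeR and 4457 of them were called at a Benjamini-Hochberg (BH) adjusted p below 0.05 in the quasi-likelihood fit, which is 31.1%, with 14.9% higher and 16.2% lower in the libraries labelled Bmal1-/-. In 33.4% of the genes tested the ranges of both groups did not overlap, so a gap between the groups is by itself common in these data. Of the 4 genes, 3 were called, all higher, and the same 3 had ranges that did not overlap. All 4 passed the filter, but Npas2 passed it only through the libraries labelled Bmal1-/-, where it is high.

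Library totals lay between 14783346 and 18449143 counts under the label Bmal1+/+ and between 14054825 and 15624815 in the libraries labelled Bmal1-/-, so that 3 counts, used here as the detection floor, are 0.163 to 0.213 CPM, that is, counts scaled to the library total, and cover counting error only. Libraries differed in more than the clock. Xist, the RNA of the inactive X chromosome, was at 942 ± 111 CPM under the label Bmal1+/+ and at 0.343 ± 0.276 CPM under the other label (SD, n = 4 each), and Y-linked transcripts were at 0 counts in libraries labelled Bmal1+/+, so the sex transcripts and the genotype label cannot be told apart. Stromal markers were scarce. The 9 fibroblast markers held 0.0139 to 0.0214% of the counts under the label Bmal1+/+ and 0.0104 to 0.0112% in the other label, with Fap at 0 in at least 1 library, while endothelial markers held 0.0133 to 0.0160% and 0.00762 to 0.0113% and leukocyte markers 0.0149 to 0.0188% and 0.00560 to 0.0122%. The 10 hepatocyte markers held 10.9 to 11.7% and 6.90 to 7.74%, with 2 called higher and 1 lower. Alb alone made that sum fall, at 6.48 to 7.08% and 1.25 to 1.93%, while the other 9 held 4.44 to 4.66% and 5.25 to 6.49%. The 6 tumor epithelial markers held 0.0187 to 0.0240% and 0.0241 to 0.0367%, with Krt20 at 0 in at least 1 library. The highest were Krt8, at means of 146 and 167 CPM, and Krt18, at 66.4 and 91.4 CPM, and neither was called. Far lower were Cdh1, at 8.18 and 19.3 CPM, Krt19, at 2.33 and 0.509 CPM, and Epcam, at 1.51 and 0.600 CPM. Which cells gave this share was not tested. Of the 5 tested, Cdh1 was called higher at 1.24, and Epcam and Krt19 lower at -1.31 and -2.18 on the log2 scale. The part of these differences in the results below was not tested. Under both labels the hepatocyte markers held a far larger share than the fibroblast, endothelial or leukocyte markers, a liver-like profile. The libraries are described as sorted tumor stroma, and which tissue gave this profile was not tested. The levels below are therefore those of these libraries and are not shown to be those of tumor stroma. In such bulk RNA, fewer cells of a type and less RNA per cell cannot be told apart.

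Arntl (ENSMUSG00000055116) lies on the plus strand of chr7:113207465-113314126 in GRCm38 and has 20 exons in the annotated transcript with its longest coding sequence. It encodes BMAL1, a partner of CLOCK and NPAS2. The 250 bases before its annotated start, chr7:113207215-113207464 from RefSeq for GRCm38.p6, are shown because the promoter is where the opposing receptors are known to act. Capitals mark ATTGG, the letters CCAAT read on the other strand.
Arntl upstream: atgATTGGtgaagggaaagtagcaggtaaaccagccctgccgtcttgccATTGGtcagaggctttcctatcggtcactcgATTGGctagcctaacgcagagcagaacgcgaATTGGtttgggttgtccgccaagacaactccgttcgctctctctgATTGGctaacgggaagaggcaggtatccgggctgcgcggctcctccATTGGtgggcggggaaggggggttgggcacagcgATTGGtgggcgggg
The known receptor elements lie just behind the start, inside an annotated exon, and were searched as the letters AGTAGGTNA on both strands. They were found at chr7:113207503-113207511 and at chr7:113207539-113207547, and the following 29-base stretches show them in capitals.
Arntl element 1: ttggtcggaaAGTAGGTTAgtggtgcgac
Arntl element 2: gaaggcagaaAGTAGGTCAgggacggagg
The second element holds the nuclear receptor half-site AGGTCA within it, so those matches overlap. These letters were chosen because the elements of Bmal1 are known, and the match is a description of the sequence.

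RefSeq windows of 300 bases, from 250 before to 50 after a start, gave a background for these letters. Of 32851 windows over all genes, 194 held AGTAGGTNA at least once, which is 0.591%, and 3 held it 2 or more times, 1 of which is an Arntl window. Because these letters follow the known Bmal1 elements, the matches at Arntl were fixed in advance. A lack of matches elsewhere says nothing of receptor elements with other letters. CCAAT stood at least once in 37.4% of the windows and 7 or more times in 4 windows, 2 of which are the overlapping windows of Arntl, with 8 and 7 matches. The cut of 7 equals the lower Arntl count, so this rarity is a description and no independent evidence. The E-box CACGTG (7.15% of all windows), the variant CACGTT (4.68%), the D-box TTANNTAA (6.0%) and the cAMP response element TGACGTCA (1.79%) had no match in any of the 7 windows of the 4 genes. AGGTCA, which stands in 16.3% of all windows, was matched once in 1 Arntl window and once in 1 of the 3 Clock windows.

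In the 4 Bmal1+/+ libraries Arntl had 45, 15, 15 and 27 counts, or 2.71, 0.960, 1.01 and 1.50 CPM after TMM scaling, a trimmed-mean correction of library size. In the libraries labelled Bmal1-/- it had 524, 469, 492 and 444 counts, or 32.7, 32.5, 35.0 and 30.1 CPM. The lowest library labelled Bmal1-/- stood far above the highest library labelled Bmal1+/+, so the groups did not overlap. The log2 fold change was 4.38 with an SE of 0.28, which is 20.8-fold (BH-adjusted p = 6.4e-06, quasi-likelihood fit of edgeR), and the 95% interval ran from 3.71 to 5.05 on the log2 scale. Among the 14353 genes tested this was rank 56 by adjusted p. By mean level, Arntl stood at percentile 12.4 of the tested genes under the label Bmal1+/+ and at percentile 71.9 in the libraries labelled Bmal1-/-.

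Replicates of Arntl were tight in one label and loose in the other. The coefficient of variation was 6.14% over the libraries labelled Bmal1-/-, where counting alone would give 4.55%, and 52.7% over the libraries labelled Bmal1+/+, where counting alone would give 19.8%. Most of the spread under the label Bmal1+/+ came from replicate 1, the highest. The counts are summed over the whole gene and the deposited table does not split them by exon, so reads from the disrupted part of the gene cannot be separated from the rest. A noncoding gene on the opposite strand, Gm45355, overlaps an exon of Arntl and had at most 1 count in any library.

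Arntl2 (ENSMUSG00000040187) lies on the plus strand of chr6:146796055-146833529 and encodes BMAL2. It was near the lower end of what was measured in both labels, with 10, 16, 9 and 8 counts in libraries labelled Bmal1+/+ (0.602, 1.02, 0.605 and 0.445 CPM) and 15, 10, 14 and 15 counts in the libraries labelled Bmal1-/- (0.937, 0.693, 0.996 and 1.02 CPM). The groups overlapped, with the second Bmal1+/+ replicate as high as the highest library of the other label. The log2 fold change was 0.45 with an SE of 0.32 (BH-adjusted p = 0.32, quasi-likelihood fit of edgeR). Its 95% interval, -0.34 to 1.23, covers no change as well as a rise of more than 1 on the log2 scale, so a difference was not detectable at this depth. The spread of 37.1% under the label Bmal1+/+ and 16.4% in the other label was close to or below the 30.5% and 27.2% that counting alone would give. Arntl2 was the only one of the 4 genes at the bottom of the range in both labels, at percentile 2.3 and percentile 7.1 of the tested genes.

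Clock (ENSMUSG00000029238) lies on the minus strand of chr5:76209868-76304792 and encodes a partner of BMAL1. The 250 bases before its outermost start, chr5:76304793-76305042 on the minus strand in RefSeq's GRCm38.p6 windows, are given for comparison with Arntl. None of the letters searched stands in this stretch, so it has no capitals, and this says nothing of the factors themselves.
Clock upstream: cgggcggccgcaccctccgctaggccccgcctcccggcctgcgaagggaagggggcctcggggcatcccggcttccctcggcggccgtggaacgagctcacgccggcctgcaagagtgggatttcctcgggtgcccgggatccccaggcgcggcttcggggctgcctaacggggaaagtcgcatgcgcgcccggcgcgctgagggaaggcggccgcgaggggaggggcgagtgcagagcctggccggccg
Clock was the highest of the 4 under the label Bmal1+/+ by counts and also per length. It had 348, 252, 226 and 385 counts (21.0, 16.1, 15.2 and 21.4 CPM) in libraries labelled Bmal1+/+ and 990, 870, 641 and 1031 counts (61.8, 60.3, 45.6 and 69.9 CPM) in the libraries labelled Bmal1-/-. Replicate 3 was the lowest in each label, a number not known to pair samples. Its value in the libraries labelled Bmal1-/- was still above every Bmal1+/+ value. The difference was 3.22-fold, a log2 fold change of 1.69 with an SE of 0.17 (BH-adjusted p = 8.9e-05, quasi-likelihood fit of edgeR). Spread was alike in the labels, at 17.5% and 17.0%. Of the genes annotated inside Clock, the pseudogene Ube2n-ps1 in an intron of Clock was at 0.00 on the log2 scale (BH-adjusted p = 0.98, edgeR) and Gm43658 had at most 14 counts in any library.

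Npas2 (ENSMUSG00000026077) lies on the plus strand of chr1:39193731-39363236 and encodes the paralog that can replace CLOCK. It is shown with its promoter because it had the smallest unadjusted p of all genes tested, and its adjusted p was shared by 1 other gene, Fmo2. The stretch chr1:39194022-39194211, the part of its RefSeq window (GRCm38.p6) that lies inside the annotated gene body but in no annotated exon, held none of the letters searched. As for Clock, this says nothing of the factors themselves.
Npas2 upstream: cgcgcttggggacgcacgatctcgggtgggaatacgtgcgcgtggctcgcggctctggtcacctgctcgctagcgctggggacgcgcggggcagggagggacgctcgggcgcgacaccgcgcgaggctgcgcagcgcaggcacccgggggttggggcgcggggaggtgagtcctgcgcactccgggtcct
Npas2 had 2, 2, 2 and 4 counts in libraries labelled Bmal1+/+, or 0.120, 0.128, 0.134 and 0.223 CPM. It had 598, 610, 481 and 460 counts in the libraries labelled Bmal1-/-, or 37.3, 42.2, 34.2 and 31.2 CPM. The libraries labelled Bmal1+/+ were all at or about the floor of 3 counts, and each library of the other label lay far above them.

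Because the Bmal1+/+ level of Npas2 rests on 10 counts in all, its fold was also taken from the pooled counts, which gave a ratio of 236 with a 95% counting interval of 128 to 493. This interval covers counting error only. The fitted log2 fold change was 7.81 with an SE of 0.21 (BH-adjusted p = 5.4e-08, quasi-likelihood fit of edgeR), and its size depends on how near-zero values are treated, from 5.84 with 0.1 added to the deposited FPKM values to 8.05 without 1 library. By mean level the gene was at percentile 0.2 of the tested genes under the label Bmal1+/+ and at percentile 74.3 in the libraries labelled Bmal1-/-. Since Npas2 passed the filter only through the libraries labelled Bmal1-/-, the low percentile is a description and no further support. Pseudogenes within the gene, Gm20428 and Gm3617, had at most 2 and 4 counts in any library. Replicates of the libraries labelled Bmal1-/- spread by 13.0%, where counting alone would give 4.31%.

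**Figure D1:**
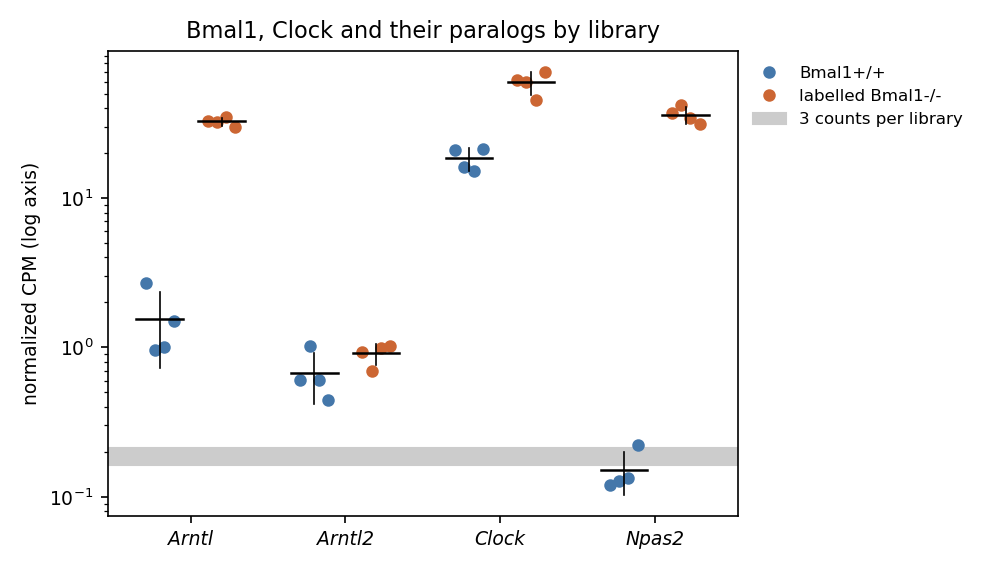
Normalized CPM of Arntl, Arntl2, Clock and Npas2 on a log axis, 1 point per library in replicate order from left to right, with the mean (bar) and SD (line) of 4 libraries per label. The grey band is the level of 3 counts. Arntl, Clock and Npas2 are separated by label, from 2.71 at most to 30.1 at least for Arntl, while the points of Arntl2 overlap.

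**Figure D2:**
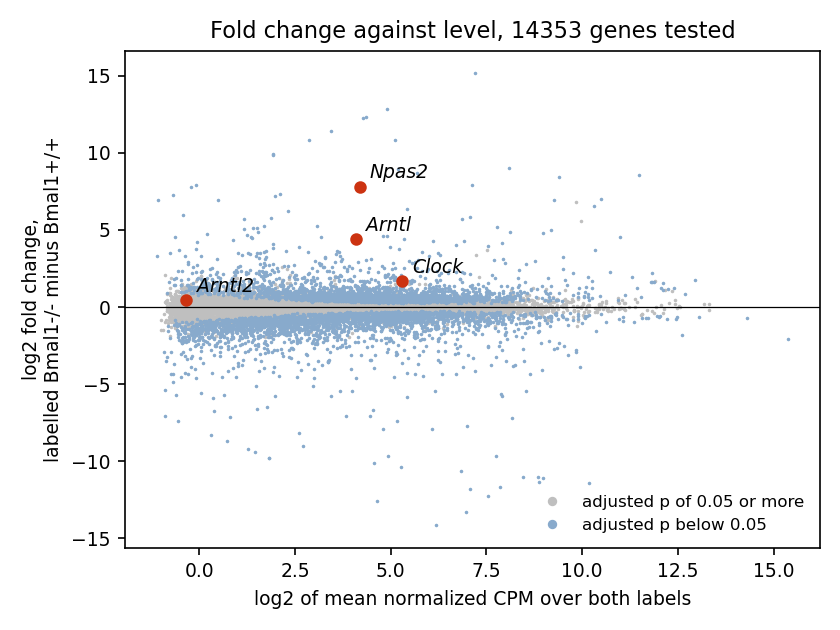
Log2 fold change (libraries labelled Bmal1-/- minus those labelled Bmal1+/+) against the log2 of the mean normalized CPM, 1 point per gene for the 14353 genes tested, with the 4 genes in red. Npas2 at 7.81 and Arntl at 4.38 lie at the upper edge of the cloud for their level, and Arntl2 at 0.45 lies within it.

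How the levels compare between genes depends on the length each count is divided by. The deposited FPKM values use 1 fixed length per gene. The counts imply it to be 8.50 kb for Arntl, 7.80 kb for Arntl2, 22.24 kb for Clock and 4.94 kb for Npas2. The annotated transcripts with the longest coding sequence have 2.46, 2.92, 9.74 and 4.24 kb. All annotated exons together have 7.52, 5.69, 13.73 and 4.79 kb. The implied length thus exceeds all annotated exons, most for Clock and little for Npas2. On the FPKM scale the order under the label Bmal1+/+ was Clock at 0.819 ± 0.144, Arntl at 0.181 ± 0.0976, Arntl2 at 0.0847 ± 0.0303 and Npas2 at 0.0302 ± 0.00919 FPKM (SD, n = 4 each), where Arntl and Arntl2 overlapped and the other neighbours did not. In the libraries labelled Bmal1-/- the order was Npas2 at 7.41 ± 1.12, Arntl at 3.87 ± 0.278, Clock at 2.69 ± 0.445 and Arntl2 at 0.118 ± 0.0176 FPKM (SD, n = 4 each), with no overlap between neighbours. On this scale Npas2 thus went from the last place to the first. With the coding transcript's length in place of the authors' length, Arntl came first at 13.2 ± 0.813 CPM per kb and Npas2 next at 8.55 ± 1.11 CPM per kb (SD, n = 4 each), while Clock stayed behind them and Arntl2 last. The order of Arntl and Npas2 in these libraries was therefore not fixed by the data, whereas Npas2 stood above Clock and Arntl2 last on each of the 3 lengths tried.

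Paralogs were then set against each other within each library, as a description without a test. On the FPKM scale Npas2 made up 3.57 ± 0.815% of the sum of Clock and Npas2 in libraries labelled Bmal1+/+ and 73.2 ± 4.64% in the libraries labelled Bmal1-/- (SD, n = 4 each). The ranges were 2.52 to 4.47% and 66.8 to 77.2%, so the groups lay apart. With the coding transcript's length the share was 1.85 ± 0.430% and 58.4 ± 5.64%, and with all annotated exons 2.30 ± 0.532% and 63.6 ± 5.41% (SD, n = 4 each). Every library labelled Bmal1-/- thus held more Npas2 than Clock RNA per length on all 3 scales, the lowest share being 50.6%.

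Arntl2 made up 34.3 ± 15.5% of the sum of Arntl and Arntl2 on the FPKM scale in libraries labelled Bmal1+/+, with a range of 19.5 to 53.8%, and 2.96 ± 0.526% in the libraries labelled Bmal1-/-, with a range of 2.27 to 3.55% (SD, n = 4 each). These shares lay apart although Arntl2 itself was not called. The summed FPKM of the 4 genes was 1.11 ± 0.215 under the label Bmal1+/+ and 14.1 ± 1.27 under the other label (SD, n = 4 each). The ratio of the BMAL pair (Arntl plus Arntl2) to the CLOCK pair (Clock plus Npas2) moved less than its parts, at 0.311 ± 0.0762 and 0.398 ± 0.0532 on the FPKM scale (SD, n = 4 each), with ranges of 0.232 to 0.410 and 0.347 to 0.473 that overlapped. With the coding transcript's length the same ratio was 0.442 ± 0.113 and 0.935 ± 0.141 (SD, n = 4 each), and its ranges of 0.339 to 0.600 and 0.832 to 1.14 did not overlap. With all annotated exons it was 0.235 ± 0.0551 and 0.381 ± 0.0550 (SD, n = 4 each), again without overlap, so the length decides whether the ranges of this ratio meet.

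**Figure D3:**
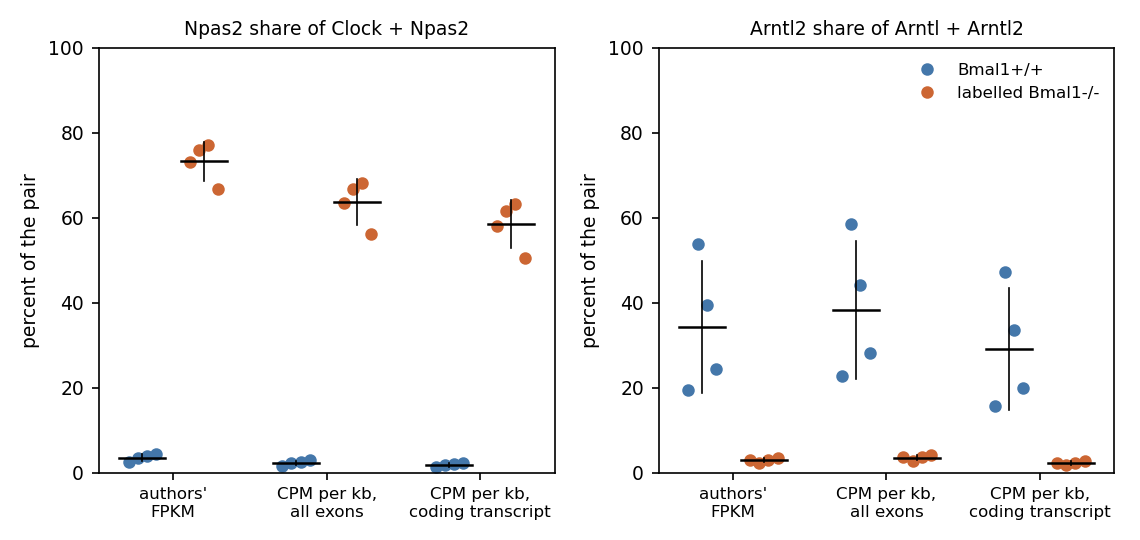
Share of Npas2 in Clock plus Npas2 (left) and of Arntl2 in Arntl plus Arntl2 (right), in percent, 1 point per library with the mean (bar) and SD (line) of 4 libraries per label, on the authors' FPKM scale and with 2 other lengths. The share of Npas2 is 4.47% at most in libraries labelled Bmal1+/+ on the FPKM scale and 50.6% at least in the libraries labelled Bmal1-/- on any of the 3 scales.

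Around these genes, the repressors that act on the Bmal1 promoter fell. Nr1d1 and Nr1d2, which encode the repressors REV-ERB alpha and beta, were lower in the libraries labelled Bmal1-/-. Nr1d1 lay between 38.4 and 52.4 CPM under the label Bmal1+/+ and from 1.56 to 4.13 CPM in the other label, with a log2 fold change of -3.97 (SE 0.24), and Nr1d2 was at -3.58 on the log2 scale (SE 0.17), with BH-adjusted p = 5.4e-06 and 1.3e-06, quasi-likelihood fit of edgeR. Rora, which encodes an activator, was not called, at 0.39 (SE 0.17, BH-adjusted p = 0.10, edgeR), and Rorb was at 0 counts in every library. The corepressors of the REV-ERB receptors, Ncor1 at 0.01 and Hdac3 at 0.09 on the log2 scale, had BH-adjusted p = 0.98 and 0.64, edgeR. Of the 6 genes of this list that are reported here, 5 were tested and 2 were called, both lower. This stands beside 31.1% called and 16.2% lower over all genes tested, and so few genes show no direction of the list. The median log2 fold change of the 5 was 0.01 against 0.02 over all genes tested.

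Among 16 genes that BMAL1 and CLOCK are known to drive through E-boxes, 13 were called, 12 lower and 1 higher, beside 31.1% called and 16.2% lower over all genes tested, with a median log2 fold change of -2.18 against 0.02. Dbp, a PAR-bZIP activator, fell from between 67.0 and 113 CPM to between 3.73 and 6.97 CPM, a log2 fold change of -4.32 (SE 0.25). Ciart, a repressor of the clock, was at -4.03 (SE 0.59), with BH-adjusted p = 4.1e-06 and 8.8e-04, quasi-likelihood fit of edgeR. Bhlhe41 at -4.00, with a mean under 1 CPM, and Nr1d1, given above, came next in size. Cry1, the cryptochrome that acts as a late repressor, went the other way, from between 15.8 and 21.3 CPM to between 73.5 and 103 CPM, a log2 fold change of 2.32 (SE 0.15, BH-adjusted p = 6.6e-06, edgeR), as Arntl, Clock and Npas2 did. Per1, Cry2 and Hlf were not called, at -0.74, 0.50 and -0.15 on the log2 scale, although Per1 was called without Bmal1+/+ replicate 1 (-0.99, BH-adjusted p = 0.019, edgeR). Per1 overlapped between labels, with 30.6 to 98.7 CPM and 31.9 to 59.2 CPM. This list was chosen with results of these data known and is no independent evidence of a direction.

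**Figure D4:**
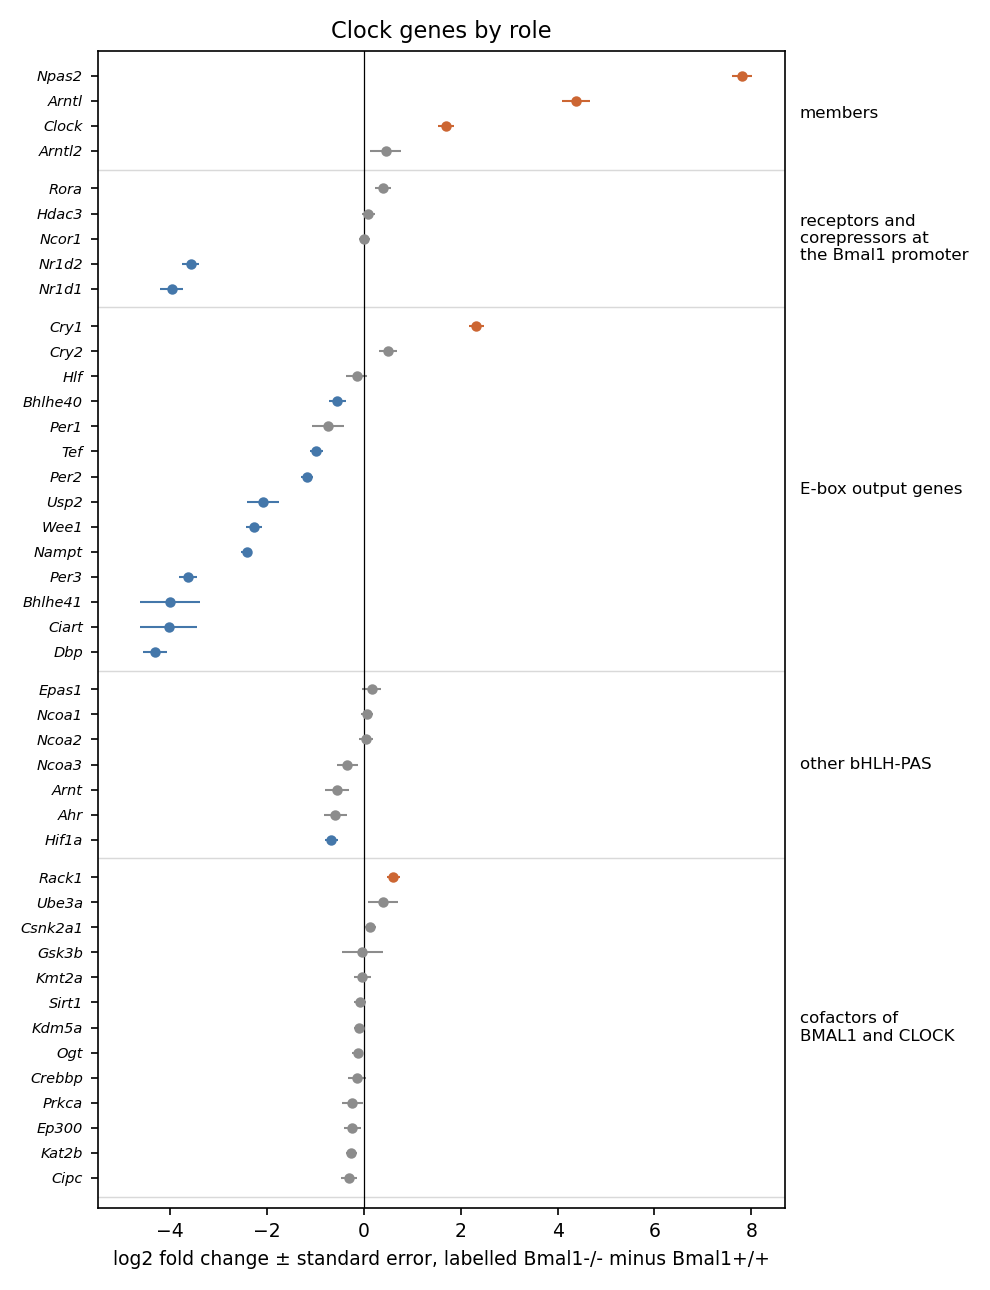
Log2 fold change with its standard error (libraries labelled Bmal1-/- minus those labelled Bmal1+/+) for the tested genes reported from each list, orange where called higher, blue where called lower and grey where not called. Nr1d1 and Nr1d2 belong to the receptor list and to the E-box list and are drawn once. Npas2, Arntl and Clock lie right of 0 with Cry1, and 12 of the 16 E-box genes lie left of 0 as called genes.

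Relatives of the 4 genes by protein family were measured in part. Of 15 other bHLH-PAS genes, which include the dioxin receptor, the hypoxia-inducible factors and the p160 coactivators, 7 were tested, and 1 was called. Hif1a, which encodes the hypoxia-inducible subunit, lay between 50.4 and 74.8 CPM under the label Bmal1+/+ and from 33.6 to 40.5 CPM under the other label, a log2 fold change of -0.67 (SE 0.13, BH-adjusted p = 0.0042, quasi-likelihood fit of edgeR). The median of the 7 was -0.34 against 0.02 over all genes tested, with Ahr at -0.59 and Arnt at -0.55, which were not called, and 8 genes of the list were not tested. The count rested on single libraries, since 2 were called without Bmal1+/+ replicate 1 or without Bmal1+/+ replicate 4, and 3 without replicate 4 of the libraries labelled Bmal1-/-.

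Proteins that act on BMAL1 and CLOCK after translation or as coactivators, such as Crebbp, Ep300, Sirt1 and Cipc, were covered by 13 genes, all tested. Rack1, a scaffold that brings protein kinase C to BMAL1, was the 1 gene called, at 210 to 246 CPM and 298 to 408 CPM, a log2 fold change of 0.61 (SE 0.13, BH-adjusted p = 0.0058, quasi-likelihood fit of edgeR). The median of the 13 was -0.11, and the other 12 lay between -0.31 for Cipc and 0.39 for Ube3a. These counts, 1 of 7 and 1 of 13, stand beside the 31.1% called over all genes.

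Genes beside the 4 loci were examined next. Of 55 genes annotated within 200 kb of a member, 17 were tested, 2 were called higher and 2 lower, beside 31.1% called over all genes tested, and the median log2 fold change was 0. Btbd10, which lies on the opposite strand with its 3′ end 1.5 kb beyond the 3′ end of Arntl, was at 2.28 CPM under the label Bmal1+/+ and 2.47 CPM in the libraries labelled Bmal1-/-, a log2 fold change of 0.12 (BH-adjusted p = 0.76, quasi-likelihood fit of edgeR). Near Npas2, Rpl31, a ribosomal protein gene of a family with many near-identical copies, was at 0.81, Rnf149 at 0.43 and Tbc1d8 at -0.64 on the log2 scale, and near Arntl2, Tm7sf3 was at -0.43, all with a BH-adjusted p of at most 0.020 in edgeR. The call of Tbc1d8 was lost without Bmal1+/+ replicate 2 or without Bmal1+/+ replicate 3, with BH-adjusted p = 0.055 and 0.053 in edgeR. The 17 tested neighbours lay between -0.64 and 0.81 on the log2 scale, and the other 38 were not tested.

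Profiles over the 8 libraries were compared by the Pearson correlation of log2 CPM, as a description in which the label dominates. An r above 0.9 was shared with Npas2 by 885 of 14335 genes (6.17%), with Arntl by 838 (5.85%), with Clock by 607 (4.23%) and with Arntl2 by 13 (0.0907%). Nearest to Npas2 were Kdm5d at 0.9990, AC121973.1 at 0.9989 and Ddx3y at 0.9986, of which Kdm5d and Ddx3y are Y-linked, and most opposite were Gm27927 at -0.9982, Gm11695 at -0.9978 and Nampt at -0.9961. Nearest to Arntl were Cyp2c70 at 0.9981, Cldn1 at 0.9974 and Tox2 at 0.9956, and most opposite Ppp1r3g at -0.9989, Gm13414 at -0.9948 and Chn2 at -0.9947. Nearest to Clock were Lrp5 at 0.9969, Scamp5 at 0.9924 and Top3b at 0.9876, and most opposite Tmem35b at -0.9860, Tppp at -0.9854 and Dbp at -0.9836. Nearest to Arntl2 were Ccdc28b at 0.9661, Arl16 at 0.9517 and Slc39a3 at 0.9449, and most opposite Arl5a at -0.9636, Tmem44 at -0.9545 and Gnb1 at -0.9405. Npas2, Arntl and Clock thus shared a separation by label with many genes, and Arntl2 did not.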

How the data were processed

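The 8 libraries, 4 per genotype label, are described as the stromal vascular fraction of MC38 tumors, and each sample was grouped by its label. The library called replicate 4 of the label Bmal1-/- carries another number in its title than in its description. Its description was used. The authors state that paired-end reads were mapped to GRCm38 with HISAT and counted per gene with StringTie, while the submitters' processing notes list CASAVA 1.8 and TopHat2 2.0.6. The authors deposited whole-number counts per gene, not normalized, and FPKM values, which use 1 length per gene. Whether counting used strand is not given in the sources used here.

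Counts were analysed with edgeR 4.0.16 (R 4.3.3) by its quasi-likelihood test after filterByExpr and TMM, with a prior count of 0.125, and p-values were adjusted by Benjamini-Hochberg over 14353 genes. A gene was called at an adjusted p below 0.05. The 95% intervals of fold changes use the standard error, and the interval of the pooled count ratio is exact binomial. Symbols and coordinates came from GENCODE M21, which matched 99.4% of identifiers, and promoter windows from RefSeq (GRCm38.p6). Fits were tested on simulated data. DESeq2 1.42.0, limma 3.58.1, other scalings and filters, a replicate block and leaving out libraries were alternatives, and other gene lengths were added after seeing the data. Figures used Python 3.11.15 and matplotlib 3.10.9.

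The 4 genes and the lists were chosen with earlier results of these data known. Named genes were the 4 members, up to 3 called genes per list with the largest absolute log2 fold change and a mean of at least 1 CPM, every tested receptor gene except 1 that is not reported here, neighbours that were called or overlapped a member, and the 3 genes most and least alike to each member. Crebbp, Ep300, Sirt1, Cipc, Ube3a, Per1, Cry2, Hlf, Cry1, Bhlhe41, Ahr, Arnt, Btbd10, Rorb, Krt8, Krt18, Krt19, Cdh1 and Epcam were named after their values were seen. The same holds for Bhlhe40, Ncoa3 and Fmo2. P-values measure the spread between these samples, since the sources say of each library only its genotype and replicate number.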

Additional observations from a re-analysis of the deposited data

Results flagged for a closer look

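Of 16 groups of 4 values checked (normalized CPM of the 4 genes and the paralog shares and ratios on the FPKM scale), 1 held a value that stood apart by Dixon's test at the 95% level, where chance gives about 1 in 20. It was the fourth Bmal1+/+ library, in which Npas2 was at 0.223 CPM while the other 3 were between 0.120 and 0.134 CPM. The gap was 0.863 of the range. The value is 4 counts against 2 in each of the others, so it rests on very few counts.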

How the results depend on the processing

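All alternatives kept the direction of each of the 4 genes and its side of the threshold (19 for Arntl and Clock, 18 for Arntl2 and Npas2, which had too few counts for a filter of 10 counts in every library). Log2 fold changes ran from 3.88 to 4.79 for Arntl, 0.25 to 0.72 for Arntl2, 1.60 to 1.78 for Clock and 5.84 to 8.05 for Npas2. Of the E-box genes, 12 to 14 were called, and of all genes 3599 to 4857. The number of called other bHLH-PAS genes, 1, became 2 with the replicate block, where Arnt was added, and 1 to 3 when leaving out libraries, where the added genes were Ahr, Ncoa3 and Arnt. Rora was called without replicate 3 labelled Bmal1-/- (BH-adjusted p = 0.034, edgeR). Per1 was called without Bmal1+/+ replicate 1, and Cry2 by the likelihood ratio test (BH-adjusted p = 0.049, edgeR) and without Bmal1+/+ replicate 2 or Bmal1-/- replicate 3. Bhlhe40 was called in the whole set but lost its call in 7 of the 8 fits that left out a library. Same-numbered libraries correlated between -0.06 and 0.06 in their deviations. No pairing by replicate number was seen, but so few libraries cannot exclude it. The block gave 3873 calls over all genes. Depth limits Arntl2, and Npas2 in Bmal1+/+, to a few counts.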

Other observations

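Npas2 belonged to a small group of genes that were nearly absent under one label. With at most 4 counts in each library of one label and at least 30 CPM in each library of the other, a rule set after seeing the values, 3 of 14353 genes were high in the libraries labelled Bmal1-/-. These were Npas2, the Y-linked helicase Ddx3y (0 against 59.4 CPM on average) and the monooxygenase-like gene Moxd1 (0 against 293 CPM). Genes that were high in Bmal1+/+ by the same rule included the drug-metabolizing enzymes Cyp3a16 (371 against 0.0690 CPM), Cyp3a44 (271 against 0.0651 CPM), Sult2a2 (146 against 0 CPM) and Sult3a1 (77.5 against 0.0468 CPM), of which Cyp3a44 and Sult3a1 are known to be expressed mainly in the female mouse liver. For Npas2 and for these enzymes alike, sex and genotype label cannot be told apart here.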
